A study of Mus musculus with 5 samples.

Results

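Class I and class I-like MHC genes were followed in stem and progenitor cells sorted from mouse bone marrow, on 3 arrays from control rtTA mice and 2 arrays from MSI2-inducible mice. The 8 genes were H2-K1, H2-D1, B2m, H2-T23, H2-M3, Cd1d1, Cd1d2 and Mr1. Every probe set that the platform annotation gives to exactly 1 of these symbols was taken, which gave 21 of 45037 probe sets and covered 7 of the 8 genes. H2-T23 had no such probe set and was not analysed here. The group was chosen by the measured difference between genotypes in these same arrays: an earlier pass had named H2-M3 and Cd1d2 among the genes lower in both MSI2-inducible arrays, and the related genes were added around them. The differences between the groups are therefore given as a description, and nothing is read from a test of them.

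MHC class I molecules display short pieces of protein on the cell surface. A heavy chain such as the classical H2-K1 or H2-D1 pairs with the light chain beta-2-microglobulin (B2m), takes up a peptide in the endoplasmic reticulum and presents it to CD8 T cells and natural killer cells. The class I-like proteins share this fold but have narrower cargo. H2-M3 presents N-formylated peptides, which bacteria and mitochondria make, the CD1d proteins present lipids to natural killer T cells, and MR1 presents vitamin B metabolites to mucosal-associated invariant T cells. Nearly all nucleated blood cells, stem cells included, carry class I, and interferons raise it.

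Control mice carry rtTA, the doxycycline-dependent transactivator, and MSI2-inducible mice carry a transgene for the RNA-binding protein Musashi 2. All 5 arrays are labelled C57BL/6, and each array is labelled as 1 replicate of its genotype. The labels give no age, no induction time and no cell type restriction of the transgene, and do not state whether replicates were separate mice, so the spread between arrays may be technical. The sample labels describe Sca1-positive, Kit-positive cells with low lineage markers, whereas the series text describes Sca1-negative cells, so the gate is uncertain.

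Values are log2 intensities of probe sets that the authors had normalized between arrays, and differences are MSI2-inducible minus control. Each array's median over all probe sets lay between 5.54 and 5.59, and values below it are close to background, where sizes are uncertain. Of 10 markers of stem and progenitor cells, 8 were measured, and all 8 lay above this median on every array. Ly6a, which encodes Sca1, was not analysed here. MSI2-inducible replicate 1 stood apart in mature neutrophil markers. The summed intensity of 9 such markers was 62444 on that array and 11743 on MSI2-inducible replicate 2, against 14228 to 26635 on control arrays. Erythroid markers, 8 of 10 measured, were also highest there, with a summed intensity of 8359, against 3829 on replicate 2 and 2434 to 3897 on control arrays. The erythropoietin receptor Epor was higher on both MSI2-inducible arrays, by 1.16 on average. Of the 8 stem and progenitor markers 6 had a difference below 0, and Slamf1, a SLAM receptor of stem cells, read 7.36, 7.99 and 7.66 in control and 5.57 and 7.22 in MSI2-inducible arrays. Slamf1 was thus lower without overlap, the only 1 of these 8 markers whose groups did not overlap (12.5%, against 18.7% of all genes). The summed intensity of the 8 was 7268 and 10133 on MSI2-inducible replicates 1 and 2, against 8459 to 9147 on control arrays. The part of such shifts in the class I values, H2-M3 and Cd1d2 included, was not tested. None of these markers passed limma's test, where 0.0220% of all genes did. An unadjusted p under 0.05 was found for 1 stem and progenitor, 2 erythroid and 0 neutrophil markers, where 5.64% of all genes had one. In sorted bulk cells, fewer cells of a type and less RNA per cell cannot be told apart.

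Promoter sequences show what H2-M3 has in common with the classical genes from which its values parted. RefSeq promoters (GRCm38.p6, 250 bases before to 50 after the start of the gene) were found for 6 of the 8 genes. Cd1d1 and Cd1d2 had no entry. Each was searched on both strands for 4 motifs: GATTCCCC, of the NF-kappaB type, AANNGAAA, of the interferon regulatory factor type, TGACG, found in X boxes, and ATTGG, found in Y boxes. The motifs were picked with these promoters in view, so their counts are a description. The promoters of H2-M3 (chr17:37269984-37270283, plus strand), H2-K1 (chr17:34000298-34000597, minus strand), H2-D1 (chr17:35262844-35263143, plus strand) and B2m (chr2:122147437-122147736, plus strand) follow, 5′ to 3′, with matches in capitals.
H2-M3: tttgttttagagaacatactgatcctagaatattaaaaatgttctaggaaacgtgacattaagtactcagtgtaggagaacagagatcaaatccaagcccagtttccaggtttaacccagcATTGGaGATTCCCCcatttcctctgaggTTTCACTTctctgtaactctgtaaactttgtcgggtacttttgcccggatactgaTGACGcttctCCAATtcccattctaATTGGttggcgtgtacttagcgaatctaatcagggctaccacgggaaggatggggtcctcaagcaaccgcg
H2-K1: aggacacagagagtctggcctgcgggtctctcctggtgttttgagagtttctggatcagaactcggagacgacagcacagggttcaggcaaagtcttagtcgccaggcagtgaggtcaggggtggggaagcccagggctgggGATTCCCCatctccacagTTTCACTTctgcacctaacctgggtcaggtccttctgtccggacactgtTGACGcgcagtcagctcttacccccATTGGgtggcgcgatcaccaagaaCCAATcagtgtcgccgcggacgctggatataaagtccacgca
H2-D1: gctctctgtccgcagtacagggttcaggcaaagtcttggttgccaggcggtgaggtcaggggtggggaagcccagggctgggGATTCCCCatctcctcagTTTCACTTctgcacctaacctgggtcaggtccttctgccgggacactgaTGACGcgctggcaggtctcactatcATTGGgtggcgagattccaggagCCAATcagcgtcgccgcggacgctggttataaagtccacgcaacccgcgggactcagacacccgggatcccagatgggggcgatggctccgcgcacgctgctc
B2m: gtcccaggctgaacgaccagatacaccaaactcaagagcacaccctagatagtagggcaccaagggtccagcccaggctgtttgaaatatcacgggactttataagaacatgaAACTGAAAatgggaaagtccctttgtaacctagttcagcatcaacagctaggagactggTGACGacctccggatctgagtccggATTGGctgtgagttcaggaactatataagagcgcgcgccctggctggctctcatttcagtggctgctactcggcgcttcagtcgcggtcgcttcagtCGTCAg

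H2-M3, H2-K1 and H2-D1 each held all 4 motifs, in 1 order along the strand apart from a further ATTGG match in H2-M3 that lay ahead of GATTCCCC. With bases counted from the start of the gene, GATTCCCC began at position -123 in H2-M3, -108 in H2-K1 and -168 in H2-D1. H2-K1 has 2 listed starts and the first was used, so its positions depend on that choice. The B2m promoter held AANNGAAA, TGACG and ATTGG, and no GATTCCCC match in this window. Of the other promoters found, that of H2-T23 held AANNGAAA and ATTGG and that of Mr1 held AANNGAAA. Among 32851 promoters of the same length, GATTCCCC was in 0.840%, AANNGAAA in 23.9%, TGACG in 20.8% and ATTGG in 37.4%. All 4 motifs occurred together in 6 promoters (0.0183%), which belong to H2-K1 (2 listed starts), H2-D1, H2-M3, Ptpre and Gm31814. No motif overlapped another in the member promoters. A match is a run of letters and shows no binding.

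The classical heavy chain H2-K1 did not separate the groups on any of its 4 probe sets. The brightest, 1425336_x_at, read 12.82, 13.04 and 13.06 in control replicates 1, 2 and 3 and 12.69 and 13.18 in MSI2-inducible replicates 1 and 2. The MSI2-inducible arrays therefore lay on both sides of the control arrays, and the difference of the means was -0.04 (limma SE 0.22). Probe set 1427746_x_at read 11.85, 11.94 and 11.93 in control and 11.61 and 12.24 in MSI2-inducible arrays, and 1451931_x_at read 11.77, 11.92 and 11.77 against 11.44 and 12.01. Both repeated the same spread, with differences of 0.02 and -0.10. The fourth, 1450534_x_at, lay near the array medians at 5.81, 5.95 and 5.66 against 5.45 and 5.70, a difference of -0.23. All 4 carry the suffix _x_at, by which the manufacturer marks probe sets with probes that can also read similar transcripts, and class I heavy chains are alike in sequence, so the signal cannot be divided between near copies.

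H2-D1, the other classical heavy chain here, had 9 probe sets, and the groups overlapped on all of them. The brightest, 1426324_at, read 12.14, 12.65 and 12.23 in control and 12.09 and 12.62 in MSI2-inducible arrays, a difference of 0.02 (limma SE 0.26). In each group 1 array was near 12.6 and the rest near 12.1 to 12.2. Probe set 1425545_x_at was almost level in control arrays at 11.68, 11.71 and 11.68, while MSI2-inducible arrays read 11.48 and 11.97. Probe set 1451784_x_at read 11.53, 11.62 and 11.75 against 11.40 and 11.90. Both show MSI2-inducible replicate 1 below and replicate 2 above every control array.

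The other H2-D1 probe sets were dimmer and did not separate the groups either. Probe set 1451683_x_at read 8.20, 8.43 and 8.18 in control and 8.06 and 8.43 in MSI2-inducible arrays, and 1450170_x_at read 7.75, 8.10 and 7.90 against 7.58 and 7.94. Probe set 1427651_x_at lay between 5.84 and 6.20 on the 5 arrays. Probe set 1452544_x_at, between 5.35 and 5.78, gave the highest H2-D1 difference, 0.26. Probe sets 1425614_x_at, between 4.93 and 5.25, and 1451934_at, between 2.58 and 2.89, were under the array median on all 5 arrays. Differences over the 13 probe sets of H2-K1 and H2-D1 ran from -0.23 to 0.26, with 5 below 0 and 8 above.

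The classical genes differed more between the 2 MSI2-inducible arrays than between the groups on most bright probe sets. Of their 13 probe sets, 9 were above the array median on every array, and on all 9 MSI2-inducible replicate 1 was lower than replicate 2, with differences (replicate 1 minus replicate 2) from -0.63 to -0.13. On the same 9 probe sets the difference between group means ran from -0.16 to 0.16, and on 8 it was smaller than the gap between these arrays. MSI2-inducible replicate 1 was the lowest of the 5 arrays on 9 of the 13. These probe sets share arrays and can share transcripts, so they are repeated readings of few genes. The summed neutrophil marker intensity was higher on replicate 1, as given above, and its part in this spread was not tested.

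B2m, the light chain that the heavy chains described here need at the cell surface, was strong and even on all 5 arrays. Probe set 1449289_a_at read 13.36, 13.37 and 13.58 in control and 13.43 and 13.53 in MSI2-inducible arrays, a difference of 0.05 (limma SE 0.17). Probe set 1452428_a_at read 13.20, 13.07 and 13.23 against 13.32 and 13.30, so both MSI2-inducible arrays were above every control array, by a gap of 0.07. Its difference was 0.14, against an SD of 0.09 (n = 3) in control. The suffix _a_at marks probe sets that read several transcripts of 1 gene.

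H2-M3, the class I-like heavy chain for formylated peptides, was lower in both MSI2-inducible arrays. Its 1 probe set, 1421358_at, read 10.44, 11.06 and 10.22 in control replicates 1, 2 and 3 and 8.20 and 8.11 in MSI2-inducible replicates 1 and 2. The groups did not overlap, with a gap of 2.02 between the lowest control and the highest MSI2-inducible array. The means were 10.57 ± 0.43 (SD, n = 3) and 8.16 ± 0.06 (SD, n = 2), a difference of -2.42 (limma SE 0.28), which corresponds to 5.35-fold more signal in control. This was the 7th lowest difference of 18193 genes. Every array lay above the array medians, so the signal was over background in both groups. The MSI2-inducible arrays differed by 0.08 in H2-M3, and the part of cell type shifts in its group difference was not tested. With each array left out in turn, the difference lay between -2.60 and -2.18.

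Cd1d2 was the second gene whose groups did not overlap. Its probe set 1421647_at read 9.90, 10.42 and 10.05 in control and 8.65 and 8.74 in MSI2-inducible arrays. Control arrays were all higher, with a gap of 1.16. The means were 10.12 ± 0.27 (SD, n = 3) and 8.70 ± 0.07 (SD, n = 2), a difference of -1.43 (limma SE 0.21), or 2.69-fold more signal in control. With each array left out in turn it lay between -1.54 and -1.28. RefSeq lists Cd1d2 as a transcribed pseudogene in the C57BL/6J assembly, so in this strain the transcript is not listed with a protein.

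Cd1d1 encodes the CD1d protein that presents lipids in this strain and lies next to Cd1d2 on chromosome 3. Probe set 1449130_at read 8.74, 9.10 and 8.93 in control and 8.69 and 8.75 in MSI2-inducible arrays. MSI2-inducible replicate 2 lay level with the lowest control array, and the difference was -0.20 (limma SE 0.18). Probe set 1449131_s_at, whose suffix marks probes shared by more than 1 transcript, read 8.74, 9.32 and 8.93 against 8.11 and 8.94. Its difference of -0.47 came with an SD of 0.59 (n = 2) between the MSI2-inducible arrays. The difference was thus -1.43 for Cd1d2 and -0.20 and -0.47 on the Cd1d1 probe sets. Since 1449131_s_at can read more than 1 transcript, its signal cannot be divided between them. The contrast between the adjacent genes was not tested.

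Mr1, the presenter of vitamin B metabolites, gave opposite readings on its probe sets. Probe set 1421899_a_at read 7.82, 6.97 and 7.70 in control and 6.38 and 7.51 in MSI2-inducible arrays, a difference of -0.55 (limma SE 0.42). Probe set 1421898_a_at read 6.87, 6.51 and 6.87 against 7.38 and 7.07, with both MSI2-inducible arrays above every control array and a difference of 0.48. MSI2-inducible replicate 1 was the lowest array on the first and the highest on the second. No direction can be given for the gene.

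**Figure D1:**
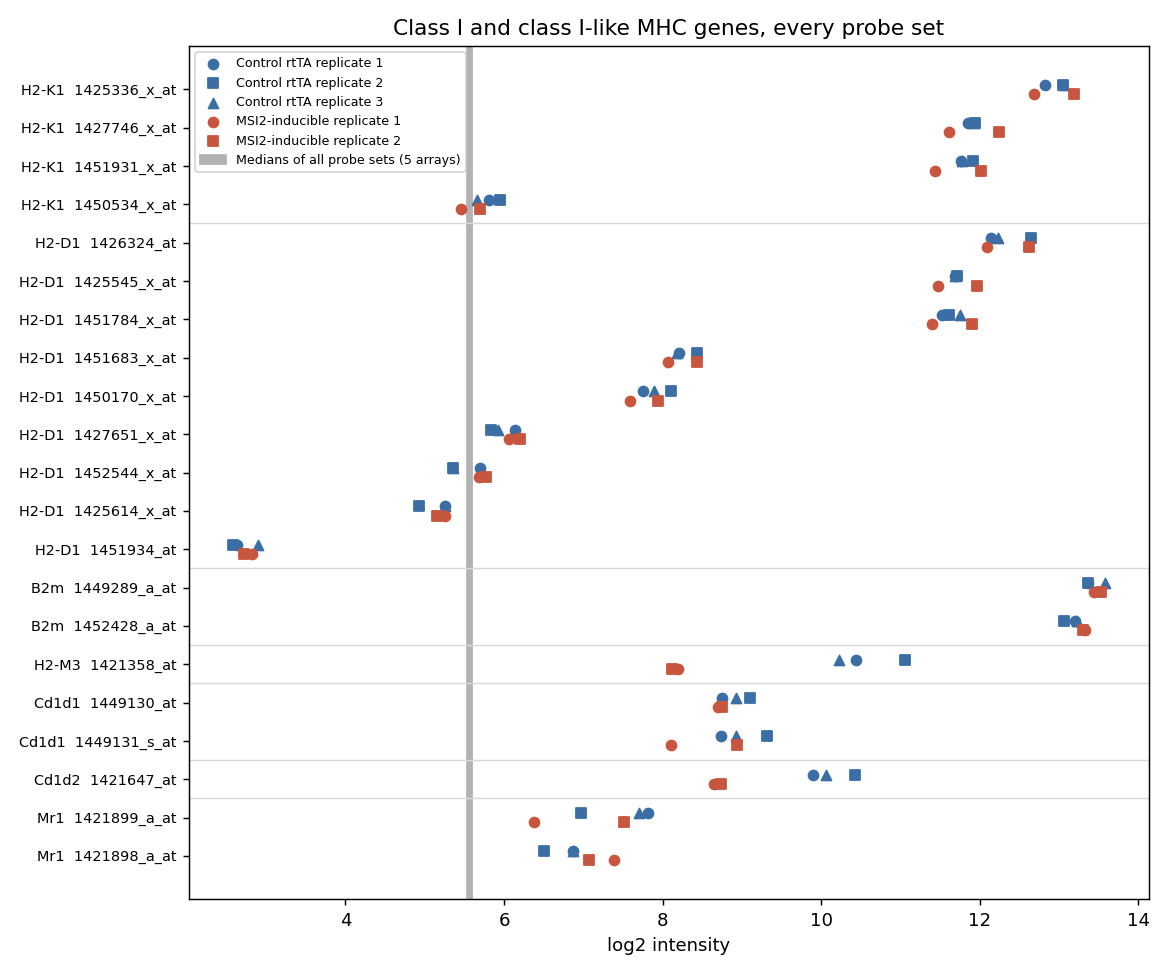
Log2 intensity (x axis) of each of the 21 probe sets of class I and class I-like genes (y axis), with 1 point per array, 3 control rtTA arrays in blue and 2 MSI2-inducible arrays in red, and the range of array medians over all probe sets in grey. H2-M3 and Cd1d2 show red points well below blue ones, with gaps of 2.02 and 1.16. The bright H2-K1 and H2-D1 probe sets show the red circle at a lower value than the red square. On some of these probe sets they lie on opposite sides of the blue points.

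Among the 7 measured genes, each represented by its brightest probe set, the groups did not overlap for 2, both lower in MSI2-inducible arrays. Over all 18193 genes tested, 9.39% were lower without overlap and 9.27% higher. None of the 7 was higher without overlap. None of the 7, H2-M3 and Cd1d2 included, was among the genes that passed limma's test, as 0.0220% of all genes did. Of the 21 probe sets, 2 were lower without overlap, where 9.66% of all probe sets were, and 2 were higher, 1 each of B2m and Mr1, where 9.26% were. Since this contrast chose the genes, nothing is read from these counts. The count of genes lower without overlap was 2 with every array present, except that it was 3 with arrays centred on their median. It was 3 without control replicate 1 or control replicate 2, and 6 without MSI2-inducible replicate 2, since replicate 1 was low for H2-K1, H2-D1, Cd1d1 and Mr1 as well. The median difference of the 7 was -0.20, against 0.00 over all genes.

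**Figure D2:**
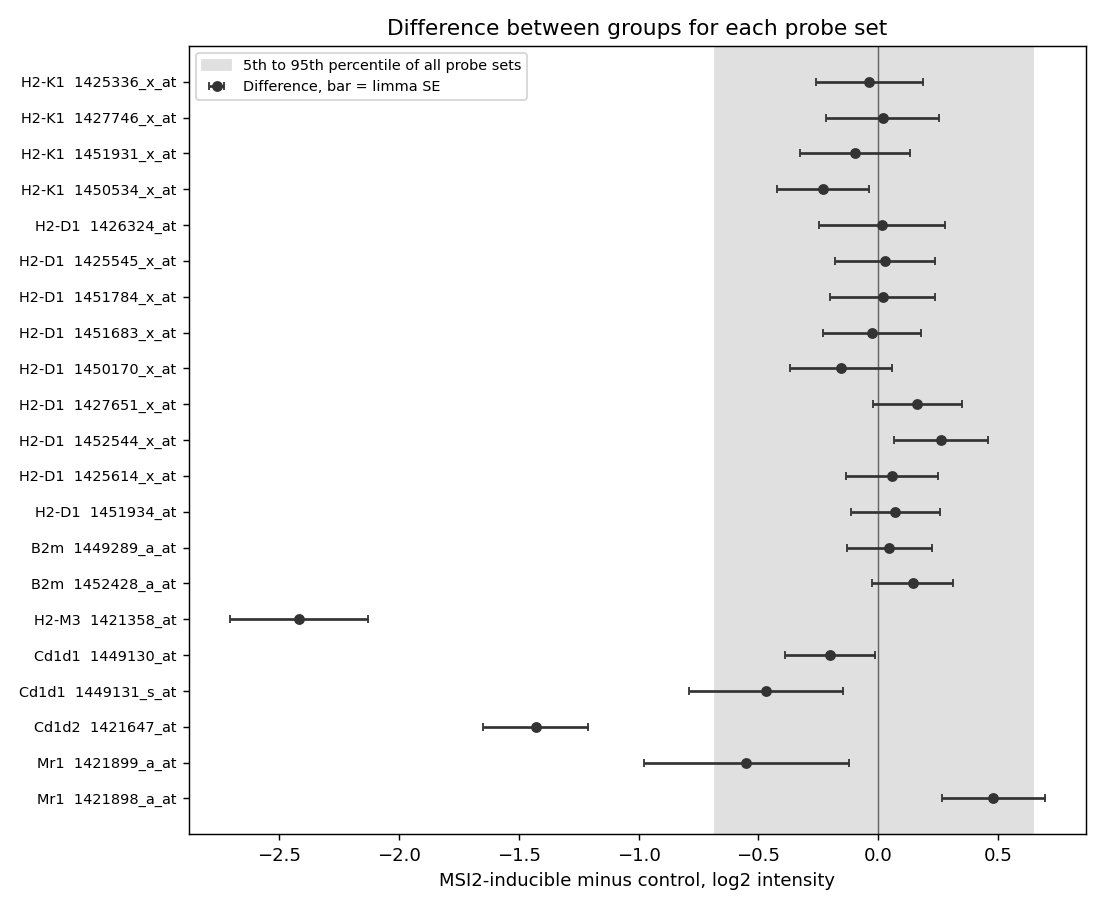
Difference between group means (x axis, MSI2-inducible minus control, log2 intensity) for each probe set (y axis), with bars of 1 limma standard error, and the 5th to 95th percentile of the differences of all probe sets in grey (-0.68 to 0.65). H2-M3 (-2.42) and Cd1d2 (-1.43) lie outside the grey band and the other 19 probe sets inside it.

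Genes with the array pattern most like H2-M3 were found by the root mean square (RMS) difference between log2 values centred on each gene's mean over the 5 arrays. The nearest were 1700097N02Rik (RMS 0.25), Tex15 (0.28) and Sycp1 (0.34), both germ cell genes, Btla (0.36), an inhibitory receptor of lymphocytes, and Alox15 (0.38), a lipoxygenase. Btla read 8.61, 9.29 and 9.39 in control and 6.95 and 6.68 in MSI2-inducible arrays. Nearest to Cd1d2 were 2310075K07Rik (0.11), Neb (0.12), which encodes the muscle protein nebulin, Adi1 (0.15), an enzyme of methionine salvage, C920009B18Rik (0.18) and Ibtk (0.18), an inhibitor of Bruton's kinase. Adi1 read 11.70, 12.04 and 12.01 against 10.66 and 10.75. Sycp1 lay under the array medians on all 5 arrays, Tex15 on both MSI2-inducible arrays and Alox15 on MSI2-inducible replicate 2. Neb lay under them on every array but control replicate 2, and at such signal the sizes are uncertain. Cd1d2 was 12th in the order from H2-M3, at an RMS of 0.51. In the order from Cd1d2, H2-M3 was only 686th of 18192 genes at the same RMS. All these genes share the step between the groups that defines the order, so the list adds no test.

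Tested genes next to the members on the chromosome were read for comparison. The 4 nearest on each side of H2-M3 in the gene table (chromosome 17) were Zfp57, Mog, Gabbr1 and Ubd and, on the other side, Olfr112, AY036118, Pgk2 and Crisp3. Their differences ran from -0.47 for Gabbr1, a GABA receptor subunit, to 0.30 for Ubd, a ubiquitin-like gene, and the groups overlapped for all 8. Only Zfp57, Gabbr1 and AY036118 lay above the array medians on every array, and the others were under them on all 5 arrays. Around the Cd1d pair the 8 neighbours differed by -0.45 (Lrba) to 0.59 (Fcrl1), with Cd5l lower and Fcrl1 higher without overlap. Around B2m (chromosome 2) they differed by -0.17 to 0.22 with all groups overlapping. Around Mr1 (chromosome 1) they differed by -0.49 (Glul, glutamine synthetase) to 0.88 (Ier5, an early response gene), with Glul and Stx6 lower without overlap. None of these 32 genes passed limma's test over all genes (lowest adjusted p 0.873). The groups did not overlap for 4 of the 32, where 18.7% of all genes did not, and 2 had an unadjusted p under 0.05, where 5.64% of all genes did. Many neighbours of H2-M3, of the Cd1d pair and of B2m lay under the array medians.

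**Figure D3:**
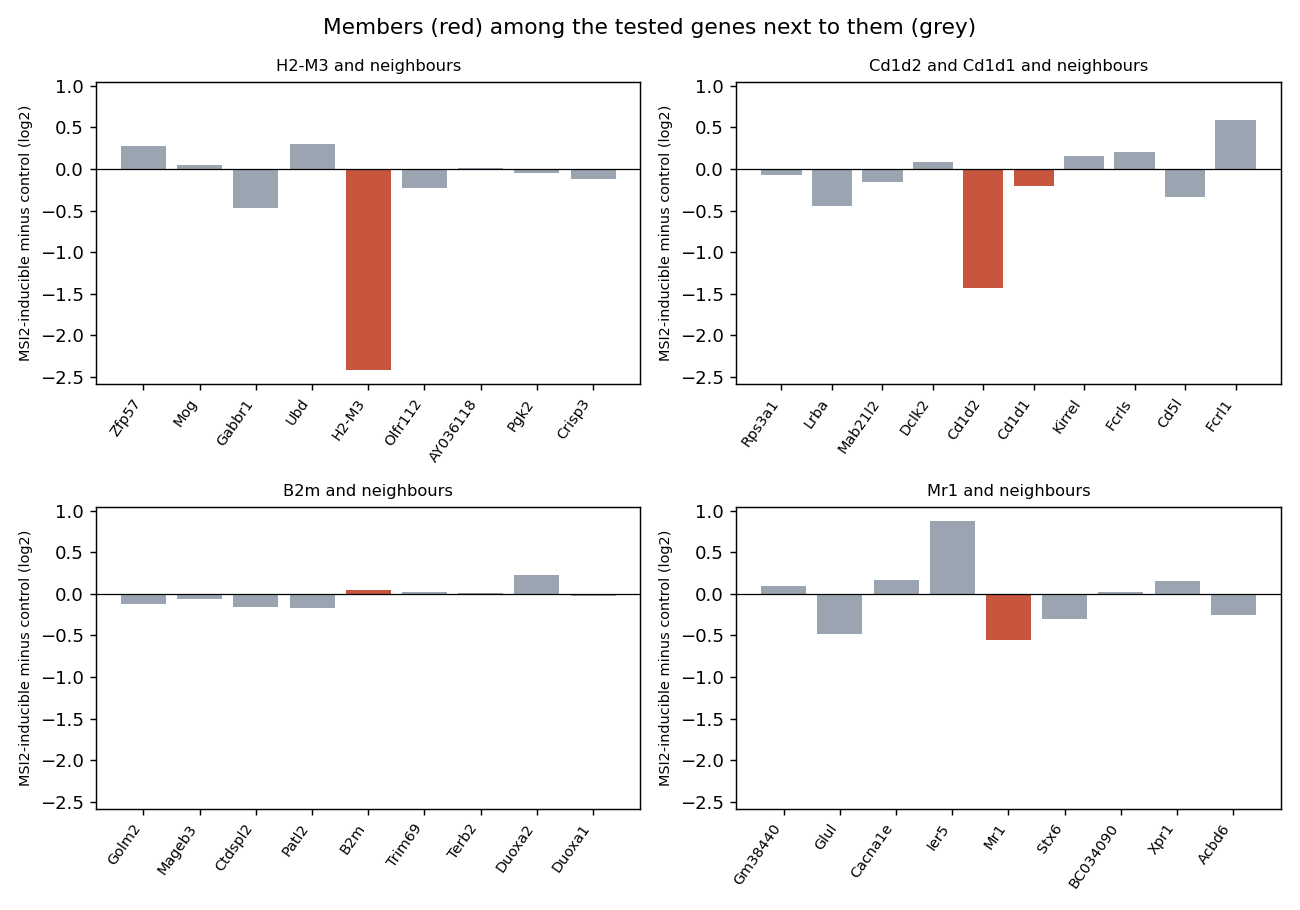
Difference between group means (y axis, log2 intensity, bars from 0) for members in red and, in grey, the 4 nearest tested genes on each side in the order of the gene table (x axis, not to scale). H2-M3 at -2.42 stands among neighbours between -0.47 and 0.30, and Cd1d2 at -1.43 stands beside Cd1d1 at -0.20.

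The machinery that loads class I was described from a list of 25 genes, of which 21 were measured. None passed limma's test in either direction, where 0.0220% of all genes did, and 4 had an unadjusted p under 0.05, all higher, where 5.64% did. The median difference was 0.08, with 15 genes above 0 and 6 below. It rested on single arrays, being 0.27 without MSI2-inducible replicate 1, 0.00587 without MSI2-inducible replicate 2 and 0.00881 without control replicate 2. The groups did not overlap for 6 genes higher and 1 lower (33.3% of the list, against 18.7% of all genes). Tap1, a subunit of the transporter that brings peptides into the endoplasmic reticulum, was the gene lower without overlap. It read 10.71, 10.77 and 10.37 in control and 10.27 and 10.34 in MSI2-inducible arrays, the mean difference being -0.31, with a gap smaller than the control spread, and its other probe sets differed by -0.20 to 0.13. Its partner Tap2 differed by 0.01. Tapbp (tapasin), which holds class I beside the transporter, differed by 0.29, reading 11.04, 10.95 and 11.01 against 11.28 and 11.30.

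Some folding proteins of the endoplasmic reticulum were higher without overlap and others were not. Hspa5, the general chaperone BiP, read 11.69, 11.66 and 11.79 in control and 12.69 and 12.50 in MSI2-inducible arrays. The means lay 0.89 apart (limma adjusted p 0.482), and its 3 probe sets differed by 0.89 to 1.05. Calr (calreticulin) differed by 0.53 and its other probe sets by 0.59 and 0.72, all without overlap. Pdia3 (ERp57), which folds heavy chains with it, differed by 0.42 without overlap, and by 0.08 with overlap on its second probe set. Canx (calnexin) differed by 0.34 without overlap. P4hb, Uggt1 and Ganab, other folding enzymes of this compartment, differed by 0.12, 0.08 and 0.03 with overlap. Canx, P4hb, Uggt1 and Ganab were picked for mention after their values were seen. Ide, a peptide-degrading enzyme, differed by 0.58, but its 4 other probe sets by 0.08 to 0.54 with overlap. The immunoproteasome subunits Psmb8 and Psmb9, which shape class I peptides, differed by -0.10 and -0.00. The other Psmb8 probe set, dimmer with group means of 4.73 and 4.95, differed by 0.22 without overlap. Psmb9 read 12.23, 12.15 and 12.09 against 11.89 and 12.43, with MSI2-inducible replicate 1 low and replicate 2 high, as for H2-K1.

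Regulators of class I had a median difference of 0.01 over 16 of 18 genes, with 8 above 0 and 8 below. By limma's test 0 passed, where 0.0220% of all genes did, and 1 had an unadjusted p under 0.05, where 5.64% did. The groups did not overlap for 3 higher and 0 lower (18.8% of the list, against 18.7% of all genes). Nlrc5, the transactivator of class I promoters, read 10.24, 10.28 and 10.13 in control and 10.03 and 10.66 in MSI2-inducible arrays, so its difference of 0.13 lay within the spread of the MSI2-inducible arrays (SD 0.44, n = 2). Rfx5, which binds the X box, differed by 0.21 and Irf1, an interferon regulatory factor, by 0.18, the latter without overlap. Nfya, a subunit of the Y box factor, differed by 0.50 and Irf8 by 0.52, both without overlap, with Nfya's other probe sets at -0.16 and 0.50.

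Interferon response genes were measured for 18 of 20 list members, with a median difference of 0.25. None passed limma's test, where 0.0220% of all genes did, and 4 had an unadjusted p under 0.05, all higher, where 5.64% did. The list's summed intensity was 5688 and 6603 on MSI2-inducible replicates 1 and 2 and 5122 to 5498 on control arrays. Of the 18, 13 were above 0 and 5 below. The groups did not overlap for 7 higher and 0 lower (38.9% of the list, against 18.7% of all genes). The list's median log2 value was 8.13 and 8.29 on MSI2-inducible replicates 1 and 2 and 7.72 to 7.95 on control arrays. The summed intensity of replicate 1 lay within the control range once Oas1a was left out, an alternative chosen after seeing the data. It was then 4785 against 4650 to 4962, while that of replicate 2 was 6137. Gbp3, an interferon-induced GTPase and 1 of the 5 below 0, read 9.05, 9.47 and 9.42 in control and 8.68 and 9.70 in MSI2-inducible arrays. It was low on replicate 1 and high on replicate 2 like H2-K1. Among the 7 higher without overlap, Oasl2 read 8.09, 7.77 and 7.86 against 8.85 and 8.85. Irf9, another of them, read 7.09, 6.94 and 6.79 against 8.04 and 7.94. Gbp3, Oasl2 and Irf9 were picked for mention after their values were seen. The list's part in the class I values was not tested.

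Genes for the lipid cargo of CD1d had a median difference of 0.04 over 13 of 14 members. By limma's test 0 passed, and 0 reached an unadjusted p under 0.05, where 5.64% of all genes did. The groups did not overlap for 1 higher and 1 lower (15.4% of the list, against 18.7% of all genes). Mttp, a lipid transfer protein that helps load CD1d, lay under the array medians at 4.89, 4.44 and 4.89 in control and 4.54 and 4.21 in MSI2-inducible arrays. Its difference was -0.37 on this probe set and 0.29 on its other probe set, both with overlap. Psap, the precursor of the saposins that exchange lipids on CD1d, differed by 0.35, less than its control SD of 0.54 (n = 3). Gm2a, another lipid transfer protein, differed by -0.31 and Ap3d1, an adaptor subunit that sorts CD1d to lysosomes, by 0.27, both without overlap. The other Gm2a probe sets differed by 0.21 and 0.15.

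Other class I and class I-like genes gave 14 measured members of 34, many of the rest being read only by probe sets with several symbols or by none named here. Their median difference was 0.17, 0 passed limma's test and 2 had an unadjusted p under 0.05, where 5.64% of all genes did. The groups did not overlap for 5 higher and 1 lower (42.9% of the list, against 18.7% of all genes). H2-Q5 read 9.32, 9.64 and 9.51 in control and 9.81 and 10.31 in MSI2-inducible arrays, a difference of 0.57, and its other probe set differed by 0.15. H2-T3, which encodes thymus leukaemia antigen, differed by 0.40, H2-M10.1 by 0.29 and H60c, a ligand of the natural killer receptor NKG2D, by 0.56. These last 3 lay under the array medians on all 5 arrays. H2-M9 (0.15) and H2-Q2 (-0.07), also without overlap, lay under them on all 5 arrays too. Of the 14, 8 did so. H2-Q5 was thus the only gene of this list without overlap that lay above the array medians.

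Class II genes, which present peptides on dendritic cells, macrophages and B cells, had a median difference of 0.21 over 11 of 12 members. None passed limma's test and 3 had an unadjusted p under 0.05, all higher, where 5.64% of all genes did. Of the 11, 7 were above 0 and 4 below, and the groups did not overlap for 3 higher and 1 lower (36.4%, against 18.7% of all genes). H2-DMb2, a chain of the peptide exchange factor DM, read 6.85, 5.67 and 6.02 in control and 8.55 and 7.75 in MSI2-inducible arrays, 1.97 apart on average (limma adjusted p 0.575). Its other probe sets differed by 0.80 and 0.76 with overlap. Cd74, the invariant chain, read 8.86, 8.63 and 8.61 against 10.15 and 9.36, a difference of 1.06, and H2-Aa, a class II alpha chain, differed by 0.65. H2-Oa, a chain of the DM inhibitor, differed by -0.36 without overlap.

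Markers of cells rich in class II were read beside these genes. The summed intensity of 10 macrophage and dendritic cell markers, a list that holds Cd74 and H2-Aa themselves, was 3961 and 2253 on MSI2-inducible replicates 1 and 2 and 1919 to 2451 on control arrays. For 9 mature B cell markers it was 5035 and 1431 against 1667 to 2779. Both sums were highest on MSI2-inducible replicate 1, and on replicate 2 they lay within or below the control range. Of these, 3 macrophage and dendritic cell markers and 5 B cell markers were under the array median on all 5 arrays. The part of these cell types in the class II or class I values, H2-M3 and Cd1d2 included, was not tested.

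Most receptors that recognise class I and class I-like proteins were at background in these cells. Of 15 listed, 13 were measured, and 12 lay under the array median on all 5 arrays. The exception was Pirb, an inhibitory receptor of myeloid and B cells, which lay above it on every array and differed by -0.38 with overlap. The median difference was -0.01, 0 passed limma's test and 1 had an unadjusted p under 0.05, where 5.64% of all genes did. The groups did not overlap for 3 higher and 2 lower (38.5% of the list, against 18.7% of all genes). Klrk1 (NKG2D) read 3.45, 3.39 and 3.24 in control and 5.53 and 3.57 in MSI2-inducible arrays, and Klrc1 (NKG2A) differed by 0.94. The other Klrc1 probe set differed by -0.09 with overlap. Klrd1 (CD94), the partner of NKG2A, differed by 0.70 and Klra8, a Ly49 receptor, by -0.52. At this signal the sizes are uncertain.

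**Figure D4:**
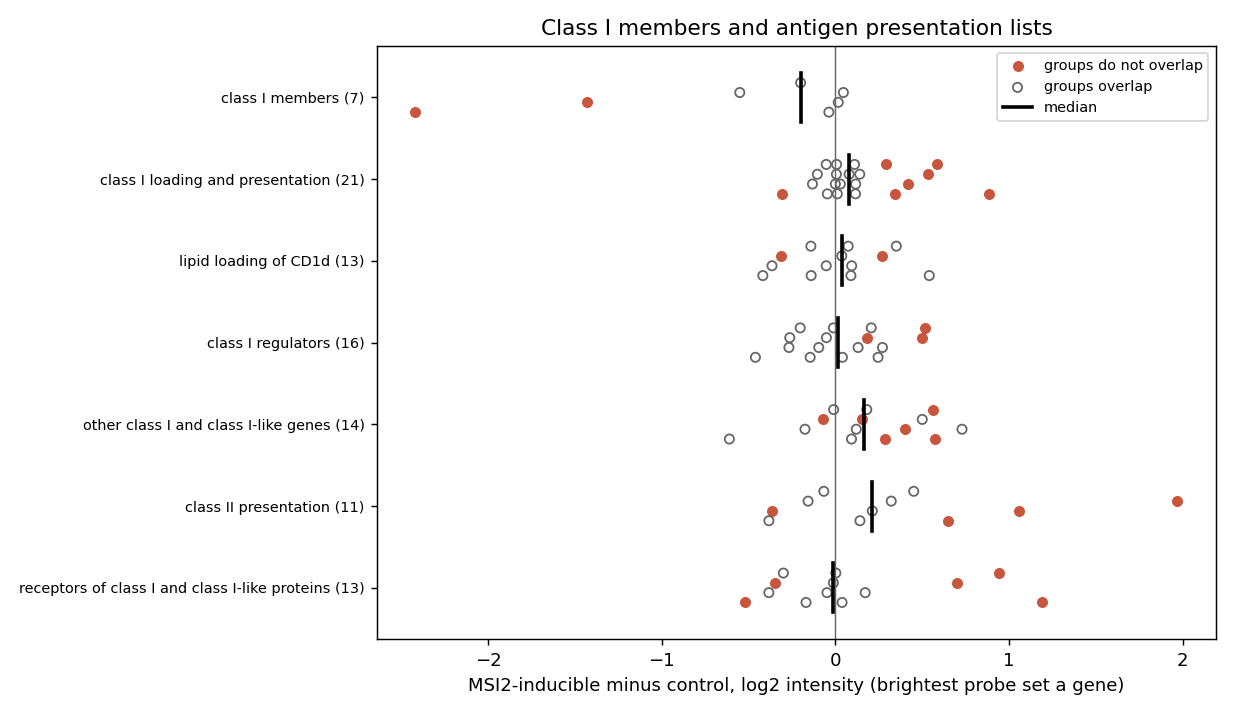
Difference between group means (x axis, log2 intensity, brightest probe set a gene) for the 7 class I members and the measured genes of 6 antigen presentation lists (y axis, number of genes in brackets), with filled points where the groups did not overlap and a bar at each median. H2-M3 (-2.42) and Cd1d2 (-1.43) are the lowest points drawn, and the list medians lie between -0.01 and 0.21.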

How the data were processed

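The deposited values are intensities of 45101 probe sets on a linear scale, normalized between arrays by the authors. The submitters' processing notes name RMA, affy and R 2.11.0. The return from log2 to a linear scale and the genome build are not given in the sources used here. Array number limits the precision.

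Here log2 was taken with no pseudocount or further normalization. The 64 control probe sets were left out. Of all 45101, 34958 had 1 symbol, 932 had several and 9211 were unnamed in the annotation used. Symbols were updated by Entrez ID (34754 matched, GRCm38.p6). The brightest probe set stood for a gene (18193 genes). The test was limma 3.58.1 (R 4.3.3, lmFit and eBayes, group only), two-sided, with Benjamini-Hochberg adjustment over all genes and a threshold of 0.05. A second fit on every probe set gave standard errors for the other probe sets.

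On simulated data for this comparison (18193 genes, 200 changed, 20 runs), genes with a log2 change of 1, 2 or 4 were called in 15.3%, 90.8% and 99.3% of cases, and 6.31% of calls were false. These rates depend on the number of changed genes. In the measured data 4 genes passed, and H2-M3 at -2.42 was not among them. The simulated rates are therefore not read as the power of the measured comparison.

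The members and gene lists were chosen with earlier results of these data known. Named were all members, 12 set genes, up to 4 further genes of each list whose groups did not overlap, by size of difference, the neighbours, and the 5 nearest genes to H2-M3 and to Cd1d2. A few further list and marker genes were picked for mention after their values were seen. Alternatives changed the gene value, filter, normalization, pseudocount, variance model, array weights, block, threshold and arrays.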

Additional observations from a re-analysis of the deposited data

How the results depend on the processing

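H2-M3, Cd1d1 and Cd1d2 kept their sign in all 15 alternatives, with ranges of -2.60 to -2.18, -0.34 to -0.11 and -1.54 to -1.28. Signs turned for H2-K1 (-0.29 to 0.21), H2-D1 (-0.25 to 0.28), B2m (-0.00 to 0.12) and Mr1 (-1.12 to 0.02), each with an array left out and, for H2-K1 (0.00467) and H2-D1 (-0.04), also with the replicate block. Without _x_at probe sets H2-K1 had no value. Members lower without overlap numbered 2 (2 to 6 with an array left out) and members higher 0 (0 to 1). The loading list's median was 0.08, and 0.00587 to 0.27 with an array left out. Genes higher numbered 3 over all genes, 1 with a pseudocount of 16, 1 with array weights, 0 with the replicate block and 0 to 0 with an array left out. Genes lower numbered 1, against 0 with a pseudocount of 16, 0 when each probe set was tested, 0 with the replicate block, 0 to 0 with an array left out, 2 after filtering low values, 2 after a further quantile normalization and 3 at a threshold of 0.10. The replicate block rests on 2 pairs that no label ties together, with correlations of same-numbered deviations of 0.134 and 0.0990. A lone MSI2-inducible array was given the control arrays' spread. Of 62 other named genes compared in this way none changed its call, and 27 changed sign in at least 1 alternative. What drove these shifts was not examined, so the cause was not tested. The dim probe sets are limited by signal near the array medians.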
